A study of Arabis alpina with 9 samples.

Results

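The genes described here carry out the core structure steps of aliphatic glucosinolate synthesis in *Arabis alpina*, a perennial alpine crucifer. They were chosen by their Arabidopsis thaliana orthologs: 10 Arabidopsis identifiers of the pathway were listed, and every *A. alpina* gene that the deposited table pairs with one of them was taken. Of the 10 identifiers, 9 were paired with a gene, each with 1, so that 9 of the 30690 genes in the table were described. They are *CYP79F1* (AT1G16410), *CYP83A1* (AT4G13770), *GSTF11* (AT3G03190), *GSTU20* (AT1G78370), *GGP1* (AT4G30530), *SUR1* (AT2G20610), *UGT74C1* (AT2G31790), *SOT17* (AT1G18590) and *SOT18* (AT1G74090). *CYP79F2* (AT1G16400), the tandem copy of *CYP79F1* in Arabidopsis, was not analysed here. No measured value entered the choice, but the set was proposed with results of these libraries known.

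Glucosinolates are sulfur-rich defence compounds of the mustard family that are broken down to toxic isothiocyanates and related products when tissue is damaged. In Arabidopsis, aliphatic glucosinolates start from methionine whose side chain has been lengthened. The core pathway turns the amino acid into an aldoxime, oxidizes it, joins it to glutathione, trims the conjugate, cleaves it to a thiohydroximate, adds glucose and finally adds sulfate. Indolic glucosinolates, made from tryptophan, follow the same kinds of step with partly different enzymes.

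RNA was sequenced from dissected shoot apices of 3-week-old plants grown in long days (16 h light and 8 h dark), in 3 genotypes with 3 libraries each. The *pep2-1* mutant, labelled pep2, is affected in *PEP2*, the *A. alpina* ortholog of the Arabidopsis floral repressor *APETALA2*, and homozygotes were identified with a genotyping marker in a population that still segregated the mutation. The *pep1-1* mutant is affected in *PEP1*, the ortholog of the vernalization-controlled floral repressor *FLC*, and the wild type is the accession Pajares. Both mutants came from chemical (EMS) mutagenesis of Pajares, so each may carry further changes, and each is represented by 1 mutant line. None of the plants had been exposed to cold, and at this age all 3 genotypes are vegetative. Libraries are called A, B and C within a genotype, as in the table, and a letter is not stated to tie libraries of different genotypes to one another.

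The libraries held 12871903 to 23829973 reads in genes, and 24417 to 24807 genes had reads. The mutated genes gave no check of the labels: *PEP2* (AALP_AA7G245300) transcripts were at 72.2, 80.7 and 84.8 CPM (reads scaled to a common library total) in *pep2-1*, 61.5, 54.2 and 49.7 in *pep1-1* and 67.6, 54.9 and 57.9 in the wild type, and *PEP1* was not analysed here. The A libraries stood apart from B and C. On the first principal component, which held 49.5% of the variance, wild-type A lay at −17.2 against 18.5 and 18.1 for wild-type B and C, *pep1-1* A lay at −3.61 against 26.4 and 28.5 for *pep1-1* B and C, and the *pep2-1* libraries lay at −36.6, −12.1 and −22.0. The apex label was checked against marker lists. *STM*, *KNAT1* and *CLV1* of the shoot meristem list were at 27.3 to 126 CPM in every library, whereas *CLV3* and *WUS*, which mark few cells of the meristem centre, were at or below 0.234 CPM. *CUC1*, *CUC2* and *CUC3* of the same list were low too, at 1.26 to 7.11 CPM. Summed root markers were at 0.709 to 1.71 CPM in *pep2-1*, 0.217 to 0.542 in *pep1-1* and 0.368 to 1.76 in the wild type.

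Transcript levels of 8 of the 9 genes were higher in every *pep2-1* library than in every wild-type library, against 10.4% of all tested genes. The fitted difference ran from 1.49-fold for *GSTU20* to 4.51-fold for *CYP79F1*. *GSTF11* was the exception, with overlapping values in all 3 genotypes. None of these differences passed the test. Levels in the wild type, and more so in *pep1-1*, differed between library A and libraries B and C, while the *pep2-1* libraries lay closer together. The highest level of a gene was 1.09 to 1.54 times its lowest among *pep2-1* libraries, 1.61 to 16.7 times among *pep1-1* libraries and 1.20 to 2.89 times among wild-type libraries. Levels are given as CPM of the reads in tested genes after edgeR's TMM scaling. Apices hold several cell types, so that fewer cells of a type and less RNA per cell cannot be told apart. Reads behind a value ranged from 50 (*CYP79F1* in *pep1-1* B) to 37771, and outside *CYP79F1* the lowest number was 297.

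**Figure D1:**
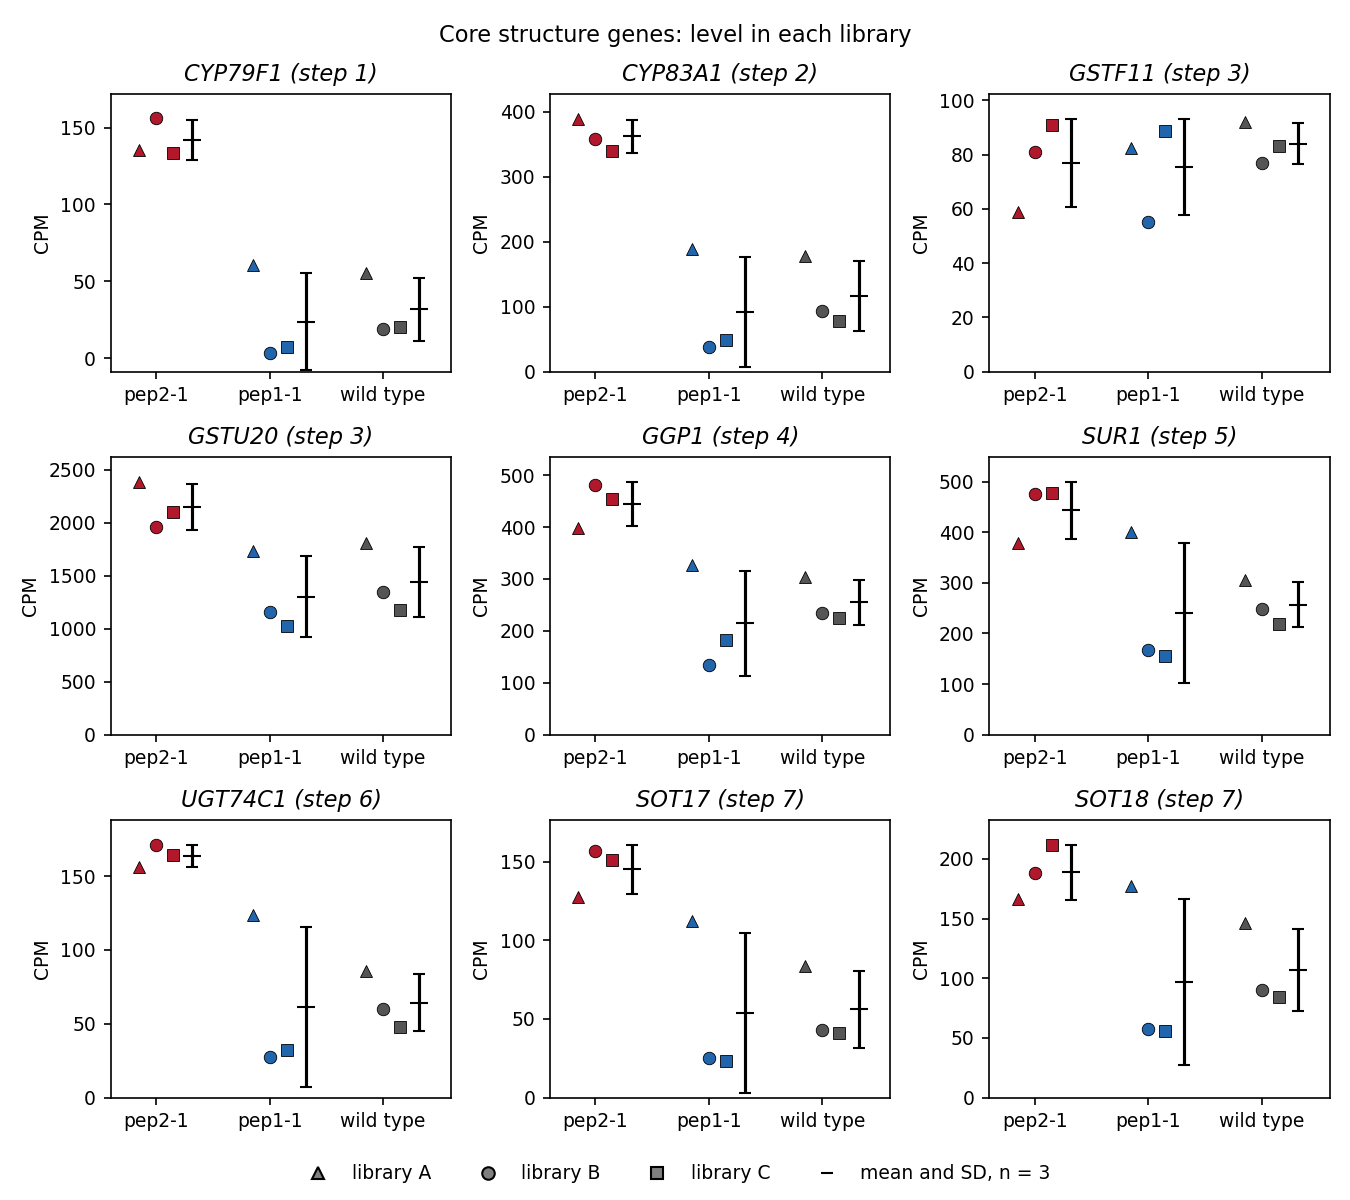
Level of each core structure gene in CPM (y axes, each gene with its own scale) in the libraries of *pep2-1*, *pep1-1* and the wild type (x axes). Symbols are libraries A, B and C, and the bar beside them is the mean ± SD (n = 3). In 8 genes the *pep2-1* symbols lie above all wild-type symbols, and in *pep1-1* library A lies above B and C. For *CYP79F1* in *pep1-1* the SD (31.8 CPM) is larger than the mean (23.78 CPM).

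The first step, from the chain-elongated amino acid to the aldoxime, is made by the cytochrome P450 CYP79F1. *CYP79F1* (AALP_AA1G181100, chromosome 1, 11659612 to 11662147) had 135.5, 156.5 and 133.6 CPM in *pep2-1* A, B and C, 60.4, 3.61 and 7.34 CPM in *pep1-1*, and 55.5, 19.2 and 20.4 CPM in the wild type. All *pep2-1* libraries lay above all others, and the A libraries of the other genotypes came nearest. Relative to the wild type, *pep2-1* had a log2 fold change of 2.17 ± 0.800 (SE; edgeR adjusted p = 0.237) and relative to *pep1-1* one of 2.56 ± 0.817 (edgeR adjusted p = 0.134). Set against the wild type, the value ranked 23 among the 21713 tested genes. In *pep1-1* over the wild type the value was −0.39 ± 0.802 with overlapping libraries (edgeR adjusted p = 0.997).

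The aldoxime is oxidized by a further cytochrome P450, CYP83A1. *CYP83A1* (AALP_AA4G100000, chromosome 4, 9434332 to 9436159) had 389, 358 and 339 CPM in *pep2-1*, 189, 37.9 and 48.0 CPM in *pep1-1*, and 178, 93.9 and 78.2 CPM in the wild type. Again no library of the other genotypes reached the *pep2-1* range. The log2 fold change was 1.64 ± 0.540 over the wild type (edgeR adjusted p = 0.191) and 1.98 ± 0.547 over *pep1-1* (edgeR adjusted p = 0.0935), and *pep1-1* over the wild type stood at −0.34 ± 0.532 (adjusted p = 0.995). Both P450 genes belong to large families, and the sources used here do not say how reads shared by similar copies were counted.

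Glutathione is joined to the oxidized product by glutathione S-transferases, and the genes listed for this step went separate ways. *GSTU20* (AALP_AA2G227100, chromosome 2, 26513065 to 26514290) had 2386, 1963 and 2097 CPM in *pep2-1*, 1733, 1154 and 1023 CPM in *pep1-1*, and 1806, 1342 and 1174 CPM in the wild type. The *pep2-1* libraries lay above the rest, but wild-type A, at 1806 CPM, came near *pep2-1* B. Its log2 fold changes, 0.58 ± 0.207 over the wild type (edgeR adjusted p = 0.226) and 0.72 ± 0.208 over *pep1-1* (edgeR adjusted p = 0.104), were the smallest of the 8 genes that were higher in *pep2-1*. *GSTF11* (AALP_AA3G026400, chromosome 3, 1122009 to 1123031) had 58.9, 80.8 and 90.7 CPM in *pep2-1*, 82.4, 55.1 and 88.6 CPM in *pep1-1*, and 92.2, 76.9 and 83.0 CPM in the wild type. The 3 genotypes overlapped, with log2 fold changes of −0.13 ± 0.190 in *pep2-1* over the wild type (edgeR adjusted p = 0.789), −0.16 ± 0.190 in *pep1-1* over the wild type (edgeR adjusted p = 0.985) and 0.03 ± 0.191 in *pep2-1* over *pep1-1* (edgeR adjusted p = 0.961). The sign of these *GSTF11* values turned with the library left out.

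GGP1 takes the gamma-glutamyl group off the glutathione conjugate. *GGP1* (AALP_AA7G158300, chromosome 7, 19156514 to 19158520) had 398.5, 482 and 454 CPM in *pep2-1*, 327, 133.5 and 182 CPM in *pep1-1*, and 305, 235 and 225 CPM in the wild type. Its *pep2-1* libraries did not overlap with the others. The log2 fold change of 1.05 ± 0.272 over *pep1-1* had the smallest adjusted p of the 9 genes in any comparison (edgeR, 0.0786), and that over the wild type was 0.80 ± 0.271 (edgeR adjusted p = 0.200). The next enzyme, the C-S lyase SUR1, serves aliphatic and indolic glucosinolates alike in Arabidopsis. *SUR1* (AALP_AA3G373000, chromosome 3, 27775394 to 27777581) had 378, 475 and 477 CPM in *pep2-1*, 400, 167 and 155 CPM in *pep1-1*, and 305, 248 and 218 CPM in the wild type. Here *pep1-1* A lay above *pep2-1* A, while the wild type stayed below *pep2-1*. The log2 fold change was 0.79 ± 0.316 over the wild type (edgeR adjusted p = 0.275) and 0.88 ± 0.317 over *pep1-1* (edgeR adjusted p = 0.174).

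UGT74C1 is the glucosyltransferase listed for the aliphatic thiohydroximates. *UGT74C1* (AALP_AA6G079400, chromosome 6, 5324056 to 5326315) had 156, 171 and 164.5 CPM in *pep2-1*, 124, 27.7 and 32.5 CPM in *pep1-1*, and 85.6, 59.7 and 47.9 CPM in the wild type. The highest *pep2-1* library had 1.09 times the level of the lowest, and all lay above the rest. The log2 fold change was 1.35 ± 0.481 over the wild type (edgeR adjusted p = 0.222) and 1.41 ± 0.482 over *pep1-1* (edgeR adjusted p = 0.155).

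The last step, sulfation of the desulfo-glucosinolate, has 2 genes among those described. *SOT17* (AALP_AA1G203200, chromosome 1, 13758429 to 13759638) had 127, 157 and 151 CPM in *pep2-1*, 113, 25.3 and 23.2 CPM in *pep1-1*, and 84.0, 42.9 and 41.2 CPM in the wild type. No library of another genotype reached *pep2-1*, although *pep1-1* A came near it. The log2 fold change was 1.38 ± 0.538 over the wild type (edgeR adjusted p = 0.265) and 1.43 ± 0.540 over *pep1-1* (edgeR adjusted p = 0.192). *SOT18* (AALP_AA2G179700, chromosome 2, 23413794 to 23416616) had 166, 188.3 and 212 CPM in *pep2-1*, 177, 57.5 and 56.1 CPM in *pep1-1*, and 146, 90.6 and 84.2 CPM in the wild type. For *SOT18*, *pep1-1* A lay between *pep2-1* A and B, and the wild type lay below *pep2-1*. Its log2 fold change was 0.82 ± 0.404 over the wild type (edgeR adjusted p = 0.370) and 0.96 ± 0.406 over *pep1-1* (edgeR adjusted p = 0.239). In the table *SOT18* is followed in gene number by *SOT16* (AALP_AA2G179800), the indolic sulfotransferase, and the sources used here do not say whether the counting used strand or how it treated such similar neighbours.

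The question put to *pep2-1* over the wild type was whether this mutant line differed from the wild type along the pathway. Calls needed an edgeR adjusted p no greater than 0.05 and a fold change of 1 or more in size on the log2 scale. None of the 9 genes was called, against 0.834% of all tested genes in either direction. Before adjustment, edgeR gave 7 of the 9 genes as higher at p under 0.05, against 7.42% of all tested genes. The libraries of 8 genes did not overlap and were higher in *pep2-1*, against 10.4% of all tested genes, and each of these 8 had an exact two-sided permutation p of 0.1, the smallest that 3 against 3 libraries can give. The median log2 fold change was 0.82 over the 9 genes and −0.001 over all tested genes. The 4 genes with a log2 fold change above 1, *CYP79F1*, *CYP83A1*, *UGT74C1* and *SOT17*, came from the first 2 steps and the last 2 steps.

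The number of genes called differed between fits. Limma-voom with sample weights called 5 of the 9 genes higher in *pep2-1* over the wild type, against 1.74% of all tested genes, with fold changes that were larger too, 2.65 for *CYP79F1* and 1.09 for *SOT18* on the log2 scale. EdgeR on the 6 libraries of *pep2-1* and the wild type alone called 3, *CYP79F1*, *CYP83A1* and *UGT74C1*, against 0.303%. Without *pep1-1* A, which is in neither arm but enters the shared estimate of the spread, edgeR called 4, against 0.393%. These were the same 3 genes and *SOT17*, with adjusted p from 0.00873 for *UGT74C1* to 0.0257 for *SOT17* and fold changes almost the same as with all libraries. Leaving out any other single library gave no call. DESeq2 called none of the 8 genes to which it gave a p, and gave none to *CYP79F1*.

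**Figure D2:**
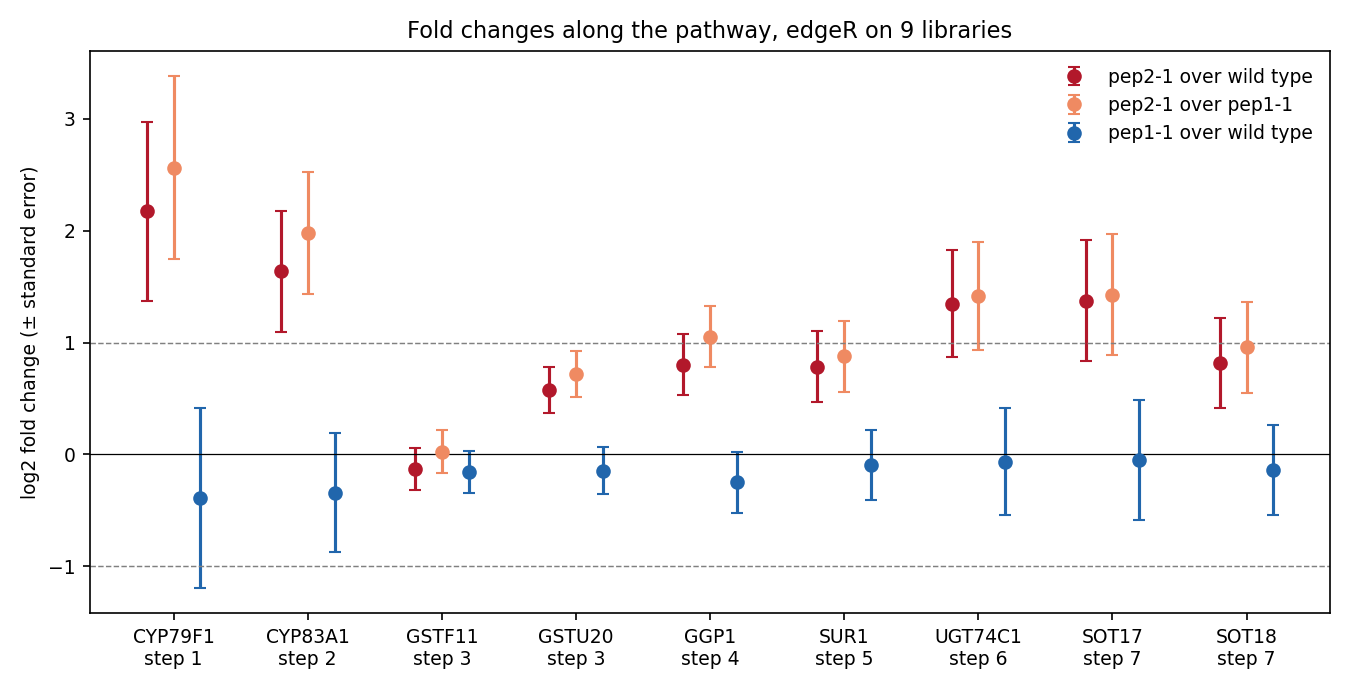
Log2 fold change of each core structure gene (y axis, ± SE from edgeR on all 9 libraries) along the pathway (x axis, step 1 to step 7), for *pep2-1* over the wild type, *pep2-1* over *pep1-1* and *pep1-1* over the wild type. Dashed lines mark the fold change needed for a call. The comparisons with *pep2-1* run from −0.13 for *GSTF11* to 2.56 for *CYP79F1*, and all 9 values of *pep1-1* over the wild type lie between −0.39 and −0.05.

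The comparison of *pep2-1* with *pep1-1* asked the same of the 2 mutants. No gene was called, against 1.34% of all tested genes in either direction, with adjusted p from 0.0786 for *GGP1* to 0.961 for *GSTF11*. Before adjustment, 8 of the 9 genes were higher at p under 0.05 in edgeR, against 10.1% of all tested genes. Libraries did not overlap for 6 genes, all higher in *pep2-1*, against 12.6% of all tested genes. *SUR1* and *SOT18* overlapped through *pep1-1* A alone, with an exact two-sided permutation p of 0.2. The median was 1.05 over the 9 genes and −0.007 over all tested genes.

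Here too the number of calls differed between fits. Without *pep1-1* A edgeR called 7 of the 9 genes higher in *pep2-1* over *pep1-1*, against 1.74% of all tested genes, with log2 fold changes from 1.46 for *SUR1* to 4.70 for *CYP79F1* (adjusted p = 0.00332) and with *GSTU20* (0.98) and *GSTF11* (0.09) not called. Limma-voom with sample weights also called 7, against 1.69%, and DESeq2, which again gave no p for *CYP79F1*, called 2, *CYP83A1* and *GGP1*, against 1.4%. With the 6 libraries of the 2 mutants alone, and without any other single library, edgeR called none.

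*pep1-1* over the wild type gave no difference that stood out from the spread. None of the 9 genes was called, against 0.161% of all tested genes in either direction, and the adjusted p ran from 0.983 to 0.9997. All 9 log2 fold changes were below 0, from −0.39 for *CYP79F1* to −0.05 for *SOT17*, with a median of −0.14 against −0.002 over all tested genes, and 0 genes were past an unadjusted p of 0.05 in edgeR. Limma-voom called none either, nor did DESeq2 among the 8 genes to which it gave a p. No gene had libraries that did not overlap, against 5.94% of all tested genes that were lower in *pep1-1* in this way. Exact two-sided permutation p ran from 0.5 to 0.7. The 3 comparisons share libraries pairwise, so their values are given side by side and their likeness is not read as support.

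The overlap came from the same library in most genes. *pep1-1* A lay above every wild-type library in 7 of the 9 genes, whereas *pep1-1* B and C lay below every wild-type library in 8. Library A had 11.0 times the mean of B and C for *CYP79F1* in *pep1-1*, 4.41 times for *CYP83A1*, 4.11 times for *UGT74C1*, 4.64 times for *SOT17* and 3.12 times for *SOT18*. The ratio was 2.48 for *SUR1*, 2.07 for *GGP1*, 1.59 for *GSTU20* and 1.146 for *GSTF11*. In the wild type library A was the highest for all 9 genes, with 2.80 times the mean of B and C for *CYP79F1*, 2.07 times for *CYP83A1*, 1.996 times for *SOT17* and 1.152 to 1.67 times for the others. In *pep2-1* library A had 0.687 to 1.18 times the mean of B and C, below both in 6 genes and above both in 2. Shares of all tested genes in these orders are not given here, so the counts of orders are only a description. On the log2 scale (with 2 CPM added) the median over the 9 genes was −0.23 in *pep2-1*, 1.61 in *pep1-1* and 0.65 in the wild type, against −0.001, −0.004 and 0.004 over all tested genes. A lay above B and C by 1 or more on this scale for 0 genes in *pep2-1*, 7 in *pep1-1* and 2 in the wild type, against 0.465%, 0.599% and 0.695% of all tested genes.

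**Figure D3:**
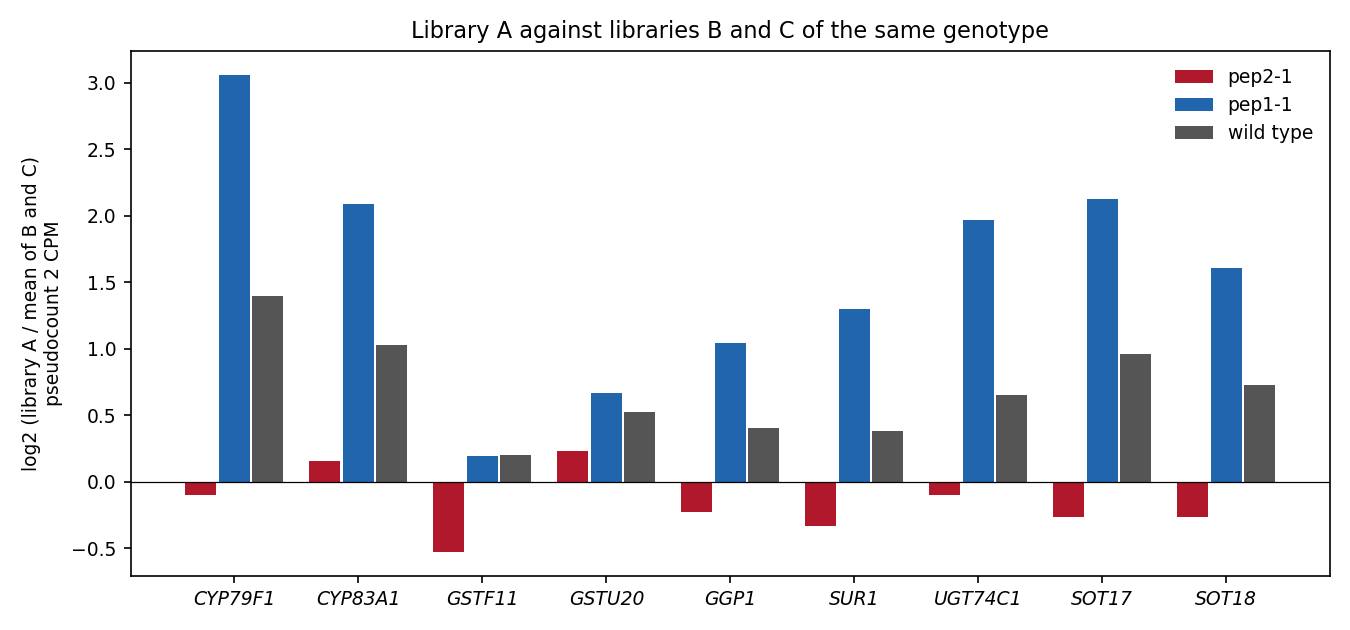
Level in library A over the mean of libraries B and C of the same genotype (y axis, log2 with 2 CPM added) for each core structure gene (x axis). Bars are *pep2-1*, *pep1-1* and the wild type, 1 ratio each with no replicate. The *pep1-1* bars reach 3.06 for *CYP79F1*, the wild-type bars reach 1.40, and the *pep2-1* bars lie between −0.53 and 0.23.

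When the 3 A libraries were left out together, 2 libraries a genotype remained and more of the 9 genes were called than with all libraries. EdgeR then called 7 of the 9 genes higher in *pep2-1* over the wild type, against 1.47% of all tested genes, and 7 higher in *pep2-1* over *pep1-1*, against 2.24%. In both, *GSTU20* stayed under the fold needed for a call and *GSTF11* was not called, with edgeR adjusted p of 0.779 over the wild type and 0.438 over *pep1-1*. *CYP79F1* stood at 2.88 over the wild type (edgeR adjusted p = 6.54e-05) and 4.74 over *pep1-1* (edgeR adjusted p = 3.44e-06). In *pep1-1* over the wild type *CYP79F1* (−1.86) and *CYP83A1* (−1.004) were called lower, each at an edgeR adjusted p of 0.0109, against 0.157% of all tested genes called lower. *SOT17* (−0.79), *UGT74C1* (−0.84), *SOT18* (−0.62) and *SUR1* (−0.53) passed the adjusted p alone (edgeR, 0.0063 to 0.0393), under the fold needed for a call. *GGP1*, *GSTU20* and *GSTF11* did not pass it (edgeR adjusted p of 0.167, 0.491 and 0.835). These values rest on 2 libraries an arm and on leaving out libraries that stood apart.

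**Figure D4:**
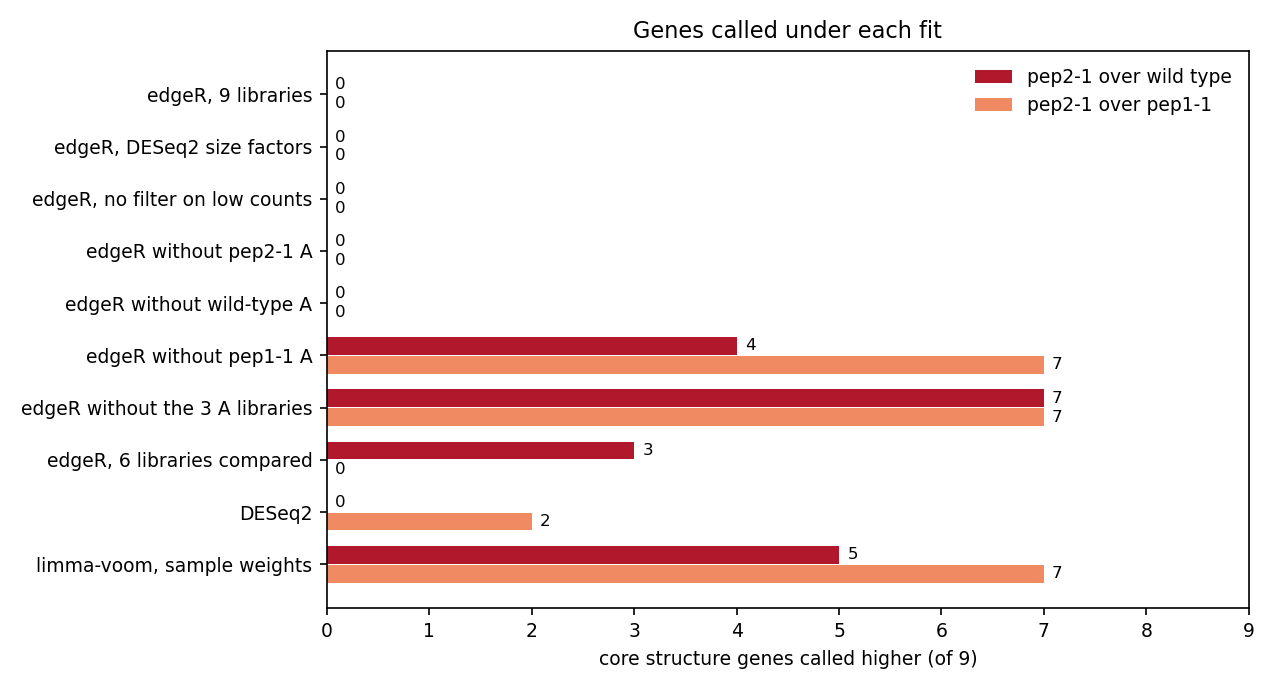
Number of the 9 core structure genes called higher (x axis, bars from 0) under 10 fits (rows), for *pep2-1* over the wild type and *pep2-1* over *pep1-1*. EdgeR on all 9 libraries gave 0 under each scaling and filter, fits without *pep1-1* A gave 4 and 7, and fits without the 3 A libraries gave 7 and 7.

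Marker genes of other cell types were set beside these values. Summed vascular markers were at 619 to 644 CPM in *pep2-1*, 399.5 to 553 CPM in *pep1-1* and 431 to 524 CPM in the wild type. All 8 vascular markers stood above 0 in the *pep2-1* to wild type comparison, with a median log2 fold change of 0.45, and for 7 of them the libraries did not overlap, against 10.4% of all tested genes that were higher in this way, but none was called. Of these markers, 1 had an edgeR adjusted p of 0.0473, under the fold needed for a call. Over *pep1-1* all 8 stood above 0 as well, with a median of 0.44, and 5 did not overlap, against 12.6%, with none called. Here too 1 marker passed the adjusted p alone (edgeR, 0.0441). The same sum was higher in library A (553 CPM in *pep1-1* and 524 CPM in the wild type) than in B and C (399.5 and 424 CPM in *pep1-1*, 431 and 454 CPM in the wild type). In these 2 genotypes the core structure genes were higher in A too, except *GSTF11* in *pep1-1* (82.4 CPM in A and 88.6 CPM in C). In *pep2-1* the vascular sum was at 619 CPM in A and at 644 and 642 CPM in B and C. Summed shoot meristem markers were at 250, 195 and 214.5 CPM in *pep2-1* A, B and C, 200, 181 and 146 CPM in *pep1-1* and 207, 168 and 154 CPM in the wild type, highest in library A of each genotype. Summed green leaf markers were at 2582 to 3916 CPM in *pep2-1*, 2499 to 3323 CPM in *pep1-1* and 2276 to 3365 CPM in the wild type, and overlapped. That sum was highest in A in *pep2-1* (3916 CPM, with 2582 and 2720 in B and C) and in the wild type (3365 CPM, with 2465 and 2276 in B and C) but not in *pep1-1*, with 3011 CPM in A, 2499 in B and 3323 in C. Markers of dividing cells were at 238 to 265 CPM in *pep2-1*, 269 to 303 CPM in *pep1-1* and 260.5 to 304 CPM in the wild type. The part of these cell types in the results was not tested.

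Levels can be set against one another between genes only per length, for which the authors' FPKM (fragments scaled by transcript length and library size) for each genotype, 1 pooled value with no spread, were used. The order of the levels was not the order of the steps. *GSTU20* was the highest by far, at 3072 FPKM in *pep2-1*, 1863 in *pep1-1* and 2053 in the wild type. *GGP1* was next, at 468, 225 and 267 FPKM in the same genotypes, followed by *SUR1* at 316, 172 and 183 FPKM. *CYP79F1*, the entry step, was the lowest gene in *pep1-1* (13.5 FPKM) and in the wild type (17.99 FPKM) but not in *pep2-1*, where its 80.9 FPKM stood above the 71.4 FPKM of *SOT18*. *CYP83A1* was at 237, 60.0 and 76.1 FPKM, *UGT74C1* at 116, 43.6 and 45.7 FPKM, *SOT17* at 143, 52.8 and 55.0 FPKM and *GSTF11* at 117, 115 and 128 FPKM in *pep2-1*, *pep1-1* and the wild type. With a single value per genotype, neighbours in this order cannot be said to differ.

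Genes that share a step or follow one another were also compared within each library, where scaling between libraries has no part. Reads of *SOT17* over reads of *SOT18* were 0.712 to 0.833 in *pep2-1*, 0.414 to 0.636 in *pep1-1* and 0.474 to 0.575 in the wild type. The *pep2-1* libraries lay above all others, and in *pep1-1* (0.636) and the wild type (0.575) library A was the highest. *GSTU20* over *GSTF11* was 23.1 to 40.5 in *pep2-1*, 11.5 to 21.0 in *pep1-1* and 14.1 to 19.6 in the wild type, again without overlap. *CYP79F1* over *CYP83A1* was 0.348 to 0.437 in *pep2-1*, 0.0952 to 0.319 in *pep1-1* and 0.205 to 0.312 in the wild type, without overlap as well. These ratios were not tested, and they depend on gene length.

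The 8 genes other than *GSTF11* followed one another closely across the 9 libraries. Pearson's r of a gene's log2 CPM with the mean of the other members was 0.907 to 0.987 for these 8 and 0.202 for *GSTF11*. The points include 3 genotypes and the A libraries that stood apart, so r is a description. The genes outside the set most like its mean were sought among 13865 genes with an Arabidopsis ortholog and at least 5 CPM. Of the 10 with the highest r, 6 were in the lists of adjoining steps, among them *UGT74B1* of the indolic core list. *BAT5*, the plastid transporter for the keto acids of chain elongation, came first (r = 0.996). *APK2*, an APS kinase that helps to supply the sulfate donor, followed (r = 0.990). Next were an aspartate kinase gene (AALP_AA3G011300, r = 0.990), *CYP79A2* (AALP_AA8G046600, r = 0.988), which makes phenylacetaldoxime in Arabidopsis, *IPMI-SSU3* (r = 0.986), *IPMI-SSU2* (r = 0.983), *UGT74B1* (r = 0.982) and *BCAT4* (r = 0.982). The last were AALP_AA3G091000, of unknown function (r = 0.981), and a laccase gene (AALP_AA1G273400, r = 0.980). Of the other genes of those lists at this level, many ranked high too. *IPMDH1*, *FMO-GS-OX5*, *MYB28*, *MYB29*, *AOP3*, *APK1*, *FMO-GS-OX1*, *IPMI-LSU1* and *SOT16* lay between rank 15 (*IPMDH1*, r = 0.971) and rank 122 (*SOT16*, r = 0.924). *GSH2*, *GSH1*, *GSTF9* and *GSTU13* lay between rank 235 (*GSH2*) and rank 980 (*GSTU13*). The lowest were indolic genes, *GSTF10* at rank 1410 (r = 0.739), *CYP79B2* at rank 3051 (r = 0.542) and *CYP83B1* at rank 8145 (r = −0.14).

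Lists of the adjoining steps were described by counts and medians. Chain elongation, which lengthens methionine before the core pathway, had 6 tested genes, with median log2 fold changes of 1.74 in *pep2-1* over the wild type and 2.19 in *pep2-1* over *pep1-1*. No gene of it was called in *pep2-1* over the wild type, and *IPMI-LSU1*, the large subunit of isopropylmalate isomerase, was called in *pep2-1* over *pep1-1*. *IPMI-LSU1* had 1151, 939 and 868 CPM in *pep2-1*, against 589, 321 and 350 CPM in *pep1-1*, and rose by 1.23 ± 0.254 on the log2 scale (edgeR adjusted p = 0.0391). *IPMI-SSU2* (2.42, adjusted p = 0.0908), *IPMDH1* (2.30, adjusted p = 0.0935) and *BCAT4* (2.34, adjusted p = 0.161) of the same route were not called by edgeR. Side-chain modification, which acts on the finished core, had 4 tested genes and none called, with medians of 1.22 over the wild type and 1.57 over *pep1-1*. Its smallest adjusted p in *pep2-1* over *pep1-1* was 0.0592, for *FMO-GS-OX5*, an S-oxygenase (edgeR).

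Of the transcription factors that activate aliphatic glucosinolate genes in Arabidopsis, *MYB28* and *MYB29* were tested. *MYB29* had 44.7, 64.5 and 58.6 CPM in *pep2-1*, against 24.2, 6.999 and 4.77 CPM in *pep1-1*, without overlap. It rose by 2.21 ± 0.463 on the log2 scale in *pep2-1* over *pep1-1* (edgeR adjusted p = 0.0404), and in *pep2-1* over the wild type, which had 22.9, 17.5 and 16.6 CPM, the value was 1.56 ± 0.444 (edgeR adjusted p = 0.138). *MYB28* stood at 0.82 over *pep1-1* (edgeR adjusted p = 0.164) and 0.70 over the wild type (edgeR adjusted p = 0.281). The calls of *MYB29* and *IPMI-LSU1* were each lost in 7 of the 9 fits without 1 library, all but those without *pep1-1* A or wild-type A, with adjusted p of 0.0538 to 0.142 for *IPMI-LSU1* and 0.0632 to 0.148 for *MYB29*. *MYB29* was also not called with only the 6 libraries of the mutants in edgeR (adjusted p = 0.0764).

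The core enzymes of the indolic branch had lower medians than the aliphatic core, 0.48 in *pep2-1* over the wild type and 0.68 in *pep2-1* over *pep1-1* over 8 tested genes, and none was called. The difference between the lists was not tested. In both comparisons 7 of the 8 genes stood above 0. *GSTF9* had an adjusted p of 0.0433 in *pep2-1* over *pep1-1* (edgeR) at a log2 fold change of 0.92, under the fold needed for a call. *CYP79B3*, at 3.78 CPM or less, stood at 1.55 over *pep1-1* (edgeR adjusted p = 0.0906) and 1.17 over the wild type. *UGT74B1* stood at 1.05 and 1.02 and *SOT16* at 1.04 and 0.87 in the same comparisons, with edgeR adjusted p of 0.231 to 0.398. *CYP83B1*, the indolic counterpart of *CYP83A1*, had 56.7, 89.2 and 89.3 CPM in *pep2-1*, 78.5, 92.9 and 66.3 CPM in *pep1-1* and 74.3, 86.8 and 92.2 CPM in the wild type, with overlap among all genotypes, and was picked out after its values were seen. Of the genes for co-substrates, *APK1*, *APK2*, *GSH1* and *GSH2*, none was called, with medians of 0.55 over the wild type and 0.61 over *pep1-1*.

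**Figure D5:**
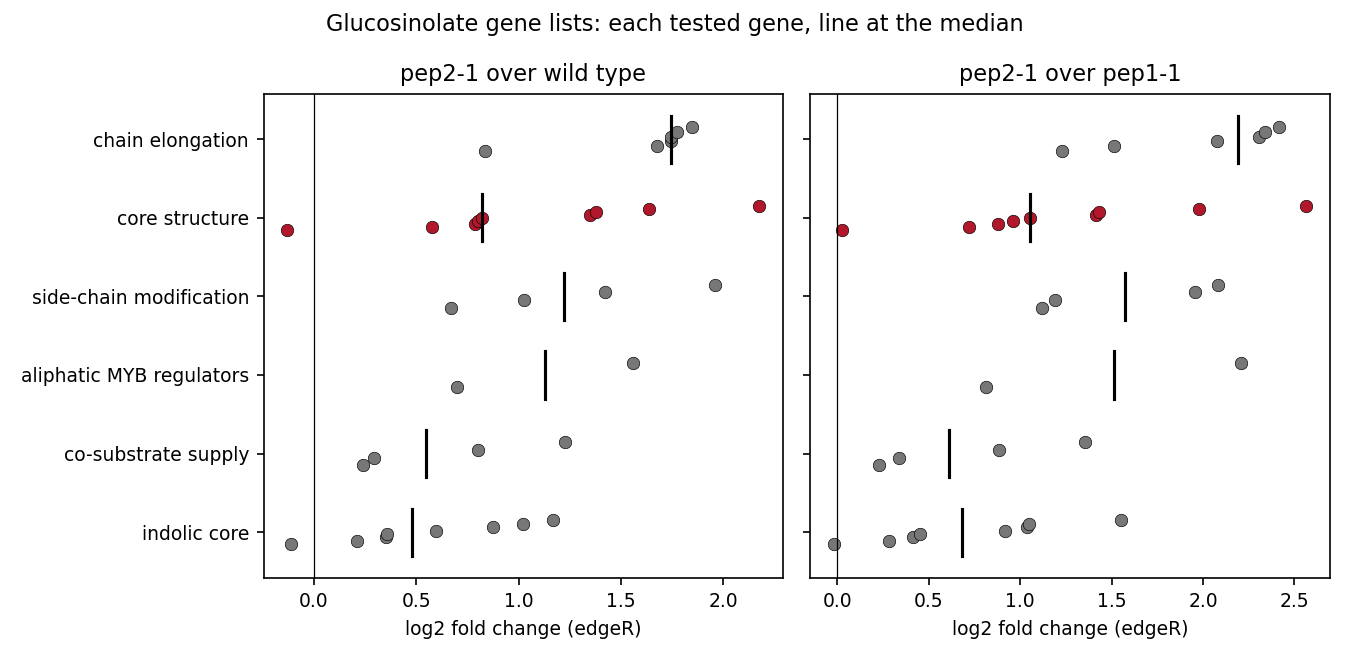
Log2 fold change (x axes, edgeR on 9 libraries) of each tested gene of the core structure set and of 5 lists of adjoining steps (rows), for *pep2-1* over the wild type (left) and over *pep1-1* (right). Points are genes and vertical lines are medians. Medians run from 0.48 (indolic core) to 1.74 (chain elongation) over the wild type, where *GSTF11* (−0.13) is the only core structure point below 0.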

How the data were processed

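RNA-seq (100 bp single-end reads, 3 biological replicates per genotype per the study's methods) was mapped by the authors to the *A. alpina* genome with TopHat at default settings and counted with Cuffdiff. The sources used here do not state versions, annotation release or strand setting. The deposited reads per gene are estimated counts, fractional in 64 genes, and were rounded. The authors' FPKM per genotype are pooled values. The deposited fold changes, p-values and q-values hold the authors' comparisons and were not used, nor were 18 columns of scaled reads and FPKM per library. How plants were divided among replicates is not stated, so p-values measure the spread between these libraries.

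Genes passing filterByExpr (minimum count 10, total 15) were 21713. They were fitted in edgeR 4.0.16 (R 4.3.3), with TMM factors of 0.981 to 1.03, quasi-likelihood F tests on genotype over all 9 libraries and Benjamini-Hochberg adjustment over all tested genes. The SE is the fold change divided by the square root of F. A log2 ratio between libraries used a pseudocount of 2 CPM. Exact permutation tests were two-sided. Alternatives were DESeq2 1.42.0, limma-voom (limma 3.58.1) with sample weights, other scaling, no filter, the 6 libraries compared, a replicate block and libraries left out. Deviations from the genotype means were checked for pairing by letter: same-letter libraries of *pep1-1* and the wild type correlated at 0.626, 0.385 and 0.319, those of *pep2-1* and the wild type at 0.472, 0.388 and 0.014, and those of *pep2-1* and *pep1-1* at 0.312, 0.077 and −0.027. The letters were treated as pairs only between *pep1-1* and the wild type, where every same-letter value was at 0.319 or above. Different-letter pairs of B and C of these genotypes were also positive, at 0.19 (*pep1-1* B with wild-type C) and 0.24 (*pep1-1* C with wild-type B). Pairs of A with B or C were at −0.521 to −0.366. Whether the letters were pairs, beyond the distance of A from B and C, was not tested. The main fit and the permutation tests did not use this pairing, and the block was run as an alternative. The fitting steps were tested on simulated data.

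All members were named, and of each adjoining list at most 4 genes, those with the smallest adjusted p in *pep2-1* over *pep1-1*, besides the 10 genes whose levels were most like the members' mean. *CYP83B1*, *CYP79B2*, *GSTF10* and *GSTU13* were added after their values were seen. Members and lists were chosen with earlier results of these data known.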

Additional observations from a re-analysis of the deposited data

How the results depend on the processing

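With all 9 libraries in edgeR, DESeq2 size factors, library size alone, no filter on low counts and no minimum fold change each left 0 core structure genes called in all 3 comparisons. In *pep2-1* over the wild type the number called higher was 5 with limma-voom, 3 with only the 6 libraries compared and 7 without the 3 A libraries. In *pep2-1* over *pep1-1* it was 2 with DESeq2 (no p for *CYP79F1*), 7 with limma-voom and 7 without the 3 A libraries. In *pep1-1* over the wild type 2 were called lower without the 3 A libraries. Leaving out 1 library at a time gave 0 to 4 called higher in *pep2-1* over the wild type and 0 to 7 in *pep2-1* over *pep1-1*, above 0 only without *pep1-1* A.

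The sign of *GSTF11* turned. In *pep2-1* over the wild type it was 0.011 with limma-voom, 0.10 without the 3 A libraries and −0.27 to 0.027 with 1 library left out, and in *pep2-1* over *pep1-1* it was −0.16 to 0.19 with 1 library left out. In *pep1-1* over the wild type, leaving out 1 library gave ranges of −2.53 to 0.28 for *CYP79F1*, −1.44 to 0.093 for *CYP83A1*, −0.29 to 0.026 for *GSTF11*, −0.40 to 0.052 for *GSTU20*, −0.67 to 0.14 for *SUR1*, −1.10 to 0.28 for *UGT74C1*, −1.20 to 0.36 for *SOT17* and −0.91 to 0.15 for *SOT18*. The lowest value came without *pep1-1* A in each but *GSTF11*. The 8 genes higher in *pep2-1* kept that direction over both other genotypes under all alternatives run.

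With a replicate block on the letter, 3 genes were called higher in *pep2-1* over the wild type, against 0.88% of all tested genes, and 7 in *pep2-1* over *pep1-1*, against 1.97%. In *pep1-1* over the wild type, where the letters were treated as pairs, the block changed no call. Log2 fold changes there ran from −0.73 for *CYP79F1* to −0.16 for *GSTU20*, with edgeR adjusted p from 0.679 for *CYP83A1* to 0.919 for *SOT17*. Over all genotypes same-letter libraries correlated at −0.03 to 0.63 and different-letter libraries at −0.53 to 0.43, and a library matched its own letter best in 12 of 18 cases. Counts of non-overlapping genes did not change with library size alone, an alternative chosen after seeing the data. Values per library in FPKM were not run as an alternative. With 3 libraries a group, exact tests could not go below 0.1. Depth was lowest for *CYP79F1*, with 50 reads in *pep1-1* B.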
